A study of Saccharomyces cerevisiae with 2 samples.

Results

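The spliceosomal small nuclear RNAs (snRNAs) are the 6 RNA features that the deposited counts list under the heading snRNA, out of 5758 features listed in all. They are LSR1 (the U2 snRNA), SNR19 (U1), SNR14 (U4), SNR6 (U6) and the long and short forms of U5, SNR7-L and SNR7-S. Members were taken by that heading alone, without regard to their counts. The counts come from UV cross-linking and analysis of cDNA (CRAC), in which a tagged protein is cross-linked to RNA in living cells and pulled out by the tag, after which the RNA fragments still attached to it are sequenced. The series holds 2 CRAC libraries of the budding yeast Saccharomyces cerevisiae, 1 per strain. One is from a strain that carries Sni445 with a C-terminal HTP tag (His-Tev-ProtA), encoded at its own chromosomal locus and selected with the klURA3 marker. The other is from an untagged strain of the same BY4741 MATa background, which shows the RNA that is recovered without a tagged protein. Both cultures were grown in YNB medium lacking tryptophan, with glucose, to an OD of 0.6, and were irradiated for 100 seconds. All 6 snRNA features had sense reads with Sni445-HTP, and 5 had them in the untagged control.

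The snRNAs are the RNA cores of the spliceosome, which removes introns from pre-mRNA. U1 pairs with the 5′ splice site and U2 with the branch point. U4 and U6 arrive base-paired to each other in the tri-snRNP together with U5, which holds the exon ends, and U6 then leaves U4 to pair with the 5′ splice site and with U2 in the active site. U1, U2, U4 and U5 are made by RNA polymerase II and carry a ring of Sm proteins. U6 is made by RNA polymerase III and carries the Lsm2-8 ring at its 3′ end. One protein, Snu13, belongs both to the U4/U6 snRNP and to the box C/D snoRNPs, the class of particle that snR4 and snR45 form.

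The sequences of U6, U4 and U5 are shown in full, because these are the members whose part of the snRNA counts was larger with Sni445-HTP, and those of U1 and U2 by their first 60 nt, which hold the stretch that pairs with the pre-mRNA. All are from RefSeq, assembly R64, written as DNA in the direction of the RNA. In U6, capitals mark the ACAGAGA box, which pairs with the 5′ splice site. In U4 they mark a match to the Sm-type letters, and in U5 the 35 nt of the long form that lie beyond the end of the short form. In U1 and U2 they mark the letters that pair with the 5′ splice site and with the branch point.
U6 (SNR6, 112 nt): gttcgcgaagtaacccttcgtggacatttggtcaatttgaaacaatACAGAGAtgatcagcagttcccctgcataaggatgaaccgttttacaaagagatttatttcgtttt
U4 (SNR14, 160 nt): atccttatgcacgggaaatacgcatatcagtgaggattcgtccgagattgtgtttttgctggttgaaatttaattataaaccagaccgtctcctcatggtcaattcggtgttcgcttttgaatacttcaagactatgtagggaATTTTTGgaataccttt
U5 long form (SNR7-L, 214 nt): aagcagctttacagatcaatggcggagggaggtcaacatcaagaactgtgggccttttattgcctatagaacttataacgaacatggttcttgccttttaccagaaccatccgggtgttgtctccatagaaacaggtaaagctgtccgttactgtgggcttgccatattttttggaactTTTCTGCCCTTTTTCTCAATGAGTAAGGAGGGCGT
U1 (SNR19, first 60 nt): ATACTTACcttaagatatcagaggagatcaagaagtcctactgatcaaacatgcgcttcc
U2 (LSR1, first 60 nt): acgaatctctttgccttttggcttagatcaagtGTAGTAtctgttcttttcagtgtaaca

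The U6 gene of R64 is at 366235 to 366346 of chromosome XII, plus strand. The others lie on minus strands, U4 on chromosome V from 167427 to 167586 and the U5 long form on chromosome VII from 939459 to 939672. U1 is on chromosome XIV from 230105 to 230672, with 568 nt, and U2 is on chromosome II from 680688 to 681862, with 1175 nt. Each is annotated as a snRNA gene of its own, outside introns and with no overlapping gene. No stretch of 20 nt of any of them occurs elsewhere in R64. The Sm-type letters ATTTTTG or ATTTTTTG, searched on both strands, were found in the RNA strand of U1, U2, U4 and both U5 forms, but not in U6, and in 4 of 76 snoRNA genes (5.26%). ACAGAGA, which was found in U6, was in the RNA strand of 0 of the 76 snoRNAs.

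Mapped reads numbered 21867727 with Sni445-HTP, against 12654405 in the control. Overlapping features each received the reads they share, and the sense counts summed to 26984818 with Sni445-HTP, against 22960662 in the control. snR4, snR45 and the intergenic features INT_0_2879 and INT_0_9029, together called the guides below, took 97.1% of the sense counts with Sni445-HTP and 1.84% in the control. This left 795326 counts outside them with Sni445-HTP, against 22537542 in the control. With Sni445-HTP, snR4 itself had 12785901 sense reads and snR45 had 8670661. The places of these intergenic features were not checked. The share of any other RNA in the whole library therefore moves with the guides. For this reason each snRNA is given as its reads, as its number of distinct cDNAs, and as a part of the snRNA counts alone, which does not depend on the guides. With 1 library per strain there is no replicate check and no test, and all intervals are exact 95% intervals, Clopper-Pearson for shares and conditional binomial for ratios. They cover counting error only, and PCR copies are not independent molecules.

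With Sni445-HTP, U6 had 389 sense reads from 93 distinct cDNAs, against 0 reads and 0 cDNAs in the untagged control. It was the only snRNA without a control read, although the control library held far more snRNA reads as a whole. U4 had 149 reads from 36 cDNAs with Sni445-HTP and 1831 reads from 63 cDNAs in the control. The U5 long form had 68 reads from 21 cDNAs with Sni445-HTP and 913 reads from 35 cDNAs in the control. Its short form had 60 reads from 18 cDNAs with Sni445-HTP and the same 913 reads from 35 cDNAs in the control. Control reads were more numerous than those with Sni445-HTP for both snRNAs.

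U1 had 118 reads from 36 cDNAs with Sni445-HTP and 13637 reads from 370 cDNAs in the control. U2, the longest of the snRNAs, had 564 reads from 163 cDNAs with Sni445-HTP and 63091 reads from 1713 cDNAs in the control. These were the 2 members with the most control reads. For all snRNAs with control reads, the cDNA numbers of the libraries lay closer together than the read numbers. No member had an antisense read in either library. By sense reads among all features, U2 stood at rank 59 with Sni445-HTP and at rank 27 in the control, U6 at rank 78 with Sni445-HTP, U4 at rank 139 with Sni445-HTP and at rank 495 in the control, and U1 at rank 158 with Sni445-HTP and at rank 64 in the control.

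**Figure D1:**
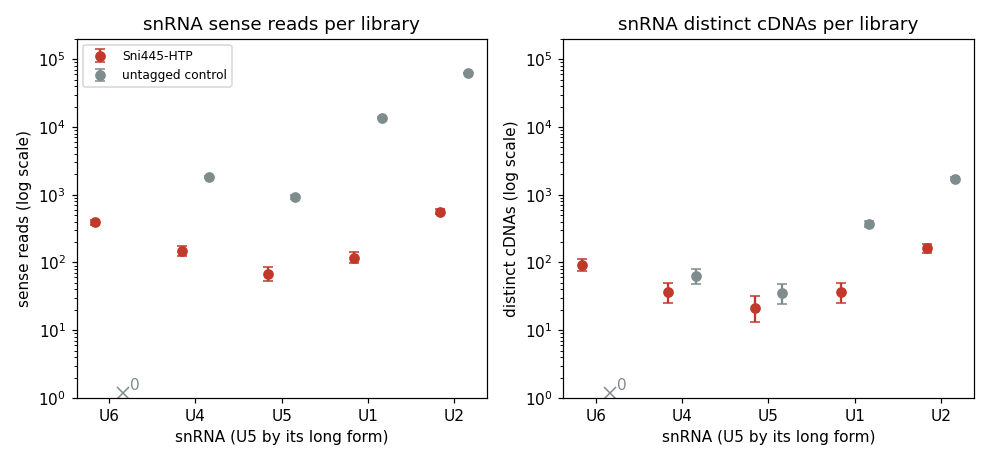
Sense reads (left) and distinct cDNAs (right) of each snRNA on a log scale, for the Sni445-HTP library and the untagged control library, with exact 95% intervals for counting error; a cross marks a count of 0. U6 has 389 reads and 93 cDNAs with Sni445-HTP and none in the control, while U2 and U1 are the most abundant snRNAs of the control.

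Control cDNAs were read many more times than those of the Sni445-HTP library. With Sni445-HTP, U2 had 3.46 reads per cDNA, U1 3.28, U4 4.14, U5 3.24 and U6 4.18. In the control, U2 had 36.8, U1 36.9, U4 29.1 and U5 26.1. The median over other features without antisense reads and with at least 10 cDNAs was 2.80 with Sni445-HTP (n = 493) and 33.0 in the control (n = 843), so the snRNAs lay near the rest of their library. Where cDNAs are given as a share, the denominator is the cDNA sum over the features without antisense reads, 192170 with Sni445-HTP, against 496151 in the control, because cDNAs were not counted by strand.

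The make-up of the snRNA counts differed between the libraries. With U5 counted once, by its long form, the snRNAs had 1288 reads and 349 cDNAs with Sni445-HTP and 79472 reads and 2181 cDNAs in the control. U6 was 30.2% (95% interval 27.7 to 32.8) of the snRNA reads with Sni445-HTP, against 0 in the control, which allows a share of up to 0.00377% by the limit of 3 counts and 0.00464% by the exact interval. U4 was 11.6% (9.87 to 13.4) with Sni445-HTP, against 2.30% (2.20 to 2.41) in the control, and U5 was 5.28% (4.12 to 6.65) with Sni445-HTP, against 1.15% (1.08 to 1.23) in the control. U1 was 9.16% (7.64 to 10.9) with Sni445-HTP, against 17.2% (16.9 to 17.4) in the control, and U2 was 43.8% (41.1 to 46.5) with Sni445-HTP, against 79.4% (79.1 to 79.7) in the control. The intervals of the libraries did not overlap for these snRNAs. The same was not computed for other RNA classes, so this does not set the snRNAs apart. Intervals in reads count PCR copies as independent and are thus too narrow, so the cDNA values below are the better guide to counting error. In all, 43.6 percentage points of the snRNA reads lay on different snRNAs in the libraries.

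**Figure D2:**
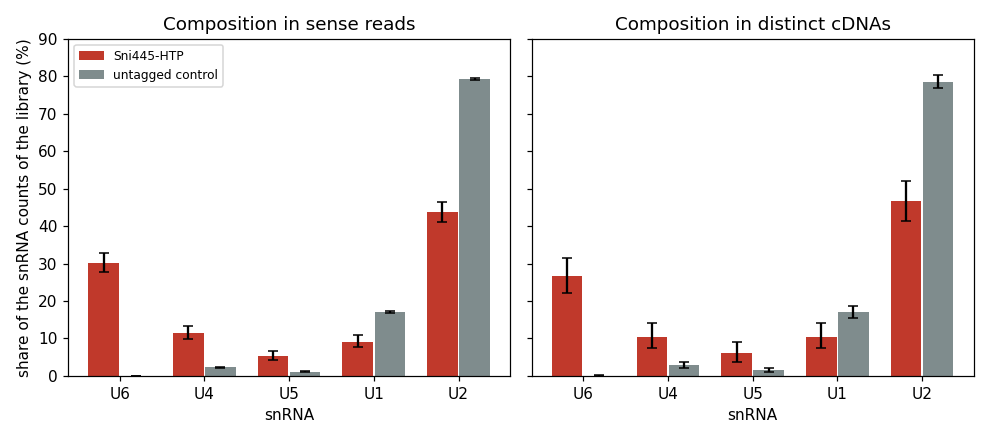
Percent of a library's snRNA counts on each snRNA, in sense reads (left) and distinct cDNAs (right), with exact 95% intervals for counting error and U5 counted by its long form. In both panels U6, U4 and U5 take a larger part with Sni445-HTP, and U1 and U2 a larger part in the untagged control.

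Distinct cDNAs gave the same directions. U6 was 26.6% (22.1 to 31.6) of the snRNA cDNAs with Sni445-HTP and 0 in the control, which allows up to 0.138% by the limit of 3 counts and 0.169% by the exact interval. U4 was 10.3% (7.33 to 14.0) with Sni445-HTP, against 2.89% (2.23 to 3.68) in the control, and U5 was 6.02% (3.76 to 9.05) with Sni445-HTP, against 1.60% (1.12 to 2.22) in the control. U1 was 10.3% (7.33 to 14.0) with Sni445-HTP, against 17.0% (15.4 to 18.6) in the control, and U2 was 46.7% (41.4 to 52.1) with Sni445-HTP, against 78.5% (76.8 to 80.2) in the control. Thus the intervals did not overlap in cDNAs either, again without a comparison to other RNA classes. In all, 38.5 percentage points of the snRNA cDNAs lay on different snRNAs. In reads as in cDNAs, the parts of the snRNAs are not independent, because a part taken by U6 lowers all others. The make-up without U6 was not computed, so it is not shown that the part of U1 would still differ without U6. Between U1 and U2 there was little difference, with 36 and 163 cDNAs with Sni445-HTP, against 370 and 1713 in the control.

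Ratios between snRNAs within a library were compared in the same way, with groupings chosen after the values were seen. For every 100 reads on U1 and U2 there were 31.8 (27.2 to 37.1) on U4 and U5 with Sni445-HTP, against 3.58 (3.44 to 3.72) in the control. In cDNAs the values were 28.6 (21.0 to 38.6) with Sni445-HTP, against 4.70 (3.80 to 5.76) in the control. U6, the pairing partner of U4, had 261 reads (216 to 317) for every 100 on U4 with Sni445-HTP, and 258 cDNAs (174 to 391). In the control it had 0 against 63 cDNAs of U4, with an upper limit of the interval of 6.03 per 100. Hence U6 was not detected in the control at a depth at which U4 was.

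Longer RNAs give more fragments, so levels of different snRNAs were compared as cDNAs per 1000000 cDNAs of the library and per 1000 nt of the R64 gene. With Sni445-HTP, U6 was highest at 4321 (3488 to 5293), followed by U4 at 1171 (820.1 to 1621), U2 at 721.9 (615.3 to 841.5), U5 at 510.6 (316.1 to 780.6) and U1 at 329.8 (231.0 to 456.6). U6 lay above all others beyond counting error, whereas the intervals of the neighbours U4 and U2, U2 and U5, and U5 and U1 overlapped. In the control the order was U2 at 2938 (2801 to 3081), U1 at 1313 (1183 to 1454), U4 at 793.6 (609.8 to 1015), U5 at 329.6 (229.6 to 458.4) and U6 at 0, with a limit of 54.0 for 3 counts and an exact upper end of 66.4. No neighbours overlapped there.

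In the whole library, the snRNAs together took 0.00477% (0.00452 to 0.00504) of the sense counts with Sni445-HTP, against 0.346% (0.344 to 0.349) in the control, and the ratio between these shares was 0.0138 (0.0130 to 0.0146). Outside the guides the shares were 0.162% (0.153 to 0.171) with Sni445-HTP, against 0.353% (0.350 to 0.355) in the control, a ratio of 0.459 (0.434 to 0.485). In cDNAs they were 0.182% (0.163 to 0.202) with Sni445-HTP, against 0.440% (0.421 to 0.458) in the control, a ratio of 0.413 (0.368 to 0.463). The family was thus below the control under all 3 ways of counting, but by very different amounts. Over the 1646 features with 10 reads or more over both libraries the median ratio was 0.0335 in all sense counts and 1.12 outside the guides, and in cDNAs it was 0.492 over 1834 features. The cDNA set takes in features with antisense reads, which the cDNA denominator leaves out. Among them are intergenic features that repeat the cDNA numbers of U2 and U5 from the opposite strand.

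By single snRNA, U2 had a share of 0.00209% (0.00192 to 0.00227) with Sni445-HTP, against 0.275% (0.273 to 0.277) in the control, and thus a ratio of 0.00761 (0.00699 to 0.00826). The ratio of U1 was 0.00736 (0.00609 to 0.00882). Both stayed below 1 outside the guides, at 0.253 (0.233 to 0.275) for U2 and 0.245 (0.203 to 0.294) for U1, and in cDNAs, at 0.246 (0.208 to 0.289) and 0.251 (0.173 to 0.354). U4 had a ratio of 0.0692 (0.0582 to 0.0819) in all sense counts, but of 2.31 (1.94 to 2.73) outside the guides and of 1.48 (0.951 to 2.26) in cDNAs, an interval that includes 1. The U5 long form had 0.0634 (0.0488 to 0.0811) in all sense counts, but 2.11 (1.62 to 2.70) outside the guides and 1.55 (0.857 to 2.74) in cDNAs, which also includes 1. The short form had 0.0559, 1.86 and 1.33 on the same scales. The direction for U4 and U5 thus turned with the way of counting, but their ratios lay above those of U1 and U2 in reads and in cDNAs. The ratios in all sense counts and outside the guides differ by a common factor, so the order of the snRNAs cannot change between them.

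For U6, a ratio can be given only as a bound against 3 control counts. Its share of 0.00144% (0.00130 to 0.00159) with Sni445-HTP was at least 110.3-fold higher than in the control, and at least 3674-fold higher outside the guides. Because a control cDNA was read about 33.0 times, 3 reads are less than 1 typical control cDNA, and a bound in cDNAs is given beside it, at least 80.0-fold higher. The lowest bound among the alternatives run was 34.2, with rRNA left out of the sense counts. With 0 control counts on each of these scales, the direction for U6 could not turn, and only the size of the bound could change.

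**Figure D3:**
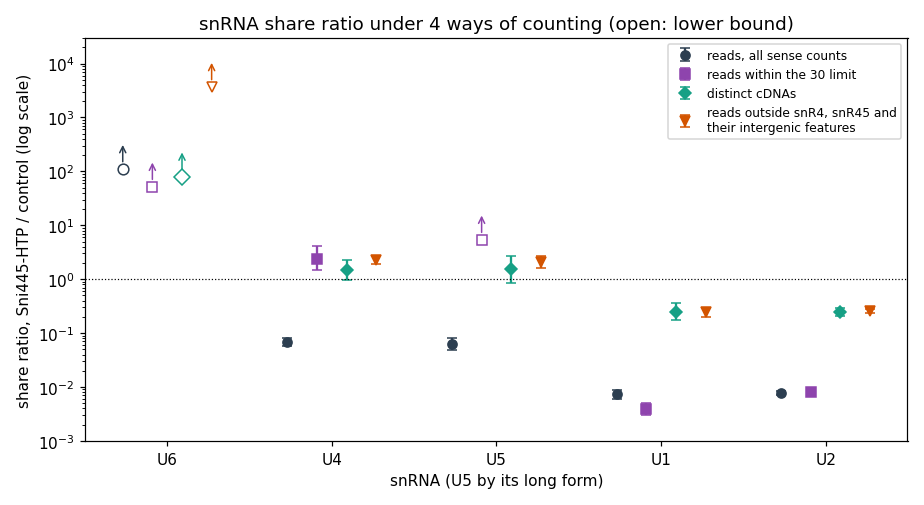
Share ratio of each snRNA, Sni445-HTP over untagged control, on a log scale and under 4 ways of counting, with exact 95% intervals for counting error; open symbols with arrows are lower bounds against a control count of 0. U6 lies above 1 and U1 and U2 below 1 throughout, while U4 and U5 lie below 1 in all sense counts and above 1 in the other 3.

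Features were called lower where the control had at least 100 reads and the share with Sni445-HTP was at most 25% of that in the control. All 5 snRNA features that could be tested were called lower, but so were 895 of 911 features (98.2%), so the count sets the snRNAs apart from nothing. Outside the guides, 1 of the 5, SNR19 (U1), was called lower, against 44.7% of features. In cDNAs, with the same minimum of 100, 1 of 2 testable members, LSR1 (U2), was called lower, against 29.8% of features, those with antisense reads included. U1 and U2 lay just on either side of the threshold in both cases.

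Features counted as higher if they had 100 reads or more with Sni445-HTP and if their share was 4 times the control's or more. SNR6 (U6) was called higher, 1 of the 4 testable members, against 38 of 179 features (21.2%), of which 27 had no control read. Outside the guides it was again the 1 call among 4, against 31.3% of features. In cDNAs 0 of 1 testable member was called, against 16.5% of features, those with antisense reads included. U6 itself was not testable there with its 93 cDNAs. Among the 27 higher features without a control read, U6 ranked 2 by cDNAs, after SNR49 with 139, a snoRNA named after its values were seen. Of the 65 features without antisense reads that had at least as many cDNAs as U6 with Sni445-HTP, 2 had no control cDNA. This cut is U6's own count, so U6 is itself among the 65 and among the 2.

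Reads on U4, U5 and U2 were shorter with Sni445-HTP, and those on U1 were not. Counts were deposited under read length limits of 1000 and of 30 bp, and the part of reads within the 30 limit was 64.3% (59.3 to 69.0) for U6 with Sni445-HTP. For U4 it was 54.4% (46.0 to 62.5) with Sni445-HTP, against 1.15% (0.711 to 1.75) in the control, 81 of 149 reads against 21 of 1831. For U5 it was 38.2% (26.7 to 50.8) with Sni445-HTP, and 0 of 913 in the control, which allows up to 0.329% by the limit of 3 counts and 0.403% by the exact interval. U1 went the other way, with 50% (40.7 to 59.3) for Sni445-HTP and 68.4% (67.6 to 69.2) in the control. U2 had 31.6% (27.7 to 35.6) with Sni445-HTP, against 21.8% (21.5 to 22.1) in the control.

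In cDNAs, which are not weighted by PCR copies, the difference held for U4, at 58.3% (40.8 to 74.5) with Sni445-HTP, against 19.05% (10.2 to 30.9) in the control, and for U2, at 29.4% (22.6 to 37.1) with Sni445-HTP, against 10.4% (9.04 to 12.0) in the control. For U5 the intervals overlapped, at 23.8% (8.22 to 47.2) with Sni445-HTP and 0 of 35 in the control, with an interval that reaches 10.003%. They also overlapped for U1, at 44.4% (27.9 to 61.9) with Sni445-HTP, against 39.7% (34.7 to 44.9) in the control, so the opposite direction of U1 was not seen beyond counting error in cDNAs. U6 had 55.9% (45.2 to 66.2) with Sni445-HTP. All features outside the guides had 59.2% of their reads at or under 30 bp with Sni445-HTP, against 40.5% in the control, so the difference was also present over the library as a whole. The snRNAs together had 46.1% (43.4 to 48.9) with Sni445-HTP, against 29.1% (28.8 to 29.4) in the control.

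**Figure D4:**
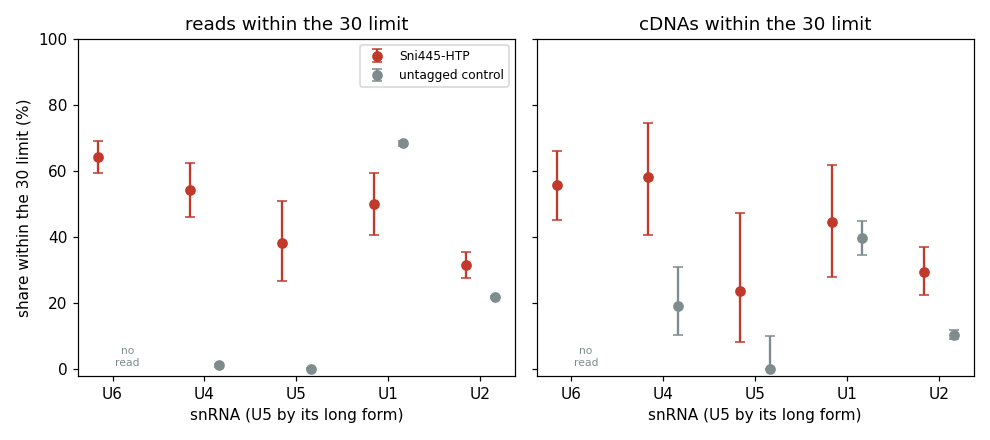
Percent of each snRNA's sense reads (left) and distinct cDNAs (right) within the read length limit of 30 bp, with exact 95% intervals for counting error; U6 has no read in the control. U4 is at 54.4% of reads with Sni445-HTP and 1.15% in the untagged control, and U1 is the snRNA with the higher value in the control in reads.

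The U5 forms share their first 179 nt, so reads on the long form alone lie at least in part within the 35 nt printed in capitals above. With Sni445-HTP, 8 of the 68 U5 reads were on the long form alone, 11.8% (5.22 to 21.9), from 3 of 21 cDNAs, 14.3% (3.05 to 36.3). In the control there were 0 of 913 reads, with an exact upper end of 0.403%, and 0 of 35 cDNAs, with an exact upper end of 10.003%. By the limit of 3 counts these are 0.329% and 8.57%. The intervals in reads did not overlap, whereas those in cDNAs did. The long form carries a 3′ extension that is made by alternative processing of the same transcript.

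Other stable noncoding RNAs give a scale for these values. Outside the guides, the median share ratio was 2.11 over the snRNAs, with U5 counted once and RNAs without a control read at their bound, 3.72 over the 74 snoRNAs other than the guides, NME1 among them, 0.694 over the 275 tRNAs with at least 10 reads, and 2.39 over NME1, RPR1, SCR1 and TLC1, which are the RNAs of RNase MRP, RNase P, the signal recognition particle and telomerase. In cDNAs the median was 1.48 over the snRNAs, 3.17 over 71 of the snoRNAs, 0.620 over 267 of the tRNAs and 1.77 over the other 4. As sums, the snRNAs had a lower cDNA ratio than the other lists, 0.413 (0.368 to 0.463) against 0.805 (0.786 to 0.825) for the snoRNAs, 0.549 (0.533 to 0.565) for the tRNAs and 1.00 (0.910 to 1.10) for the other 4. The snRNA median and sum lie on opposite sides of 1, because U2 and U1 hold most of the control counts. This split is not particular to the snRNAs. Outside the guides the sum was 0.744 for the snoRNAs and 0.726 for the other 4, against medians above 1, whereas the tRNAs had both below 1, with a sum of 0.579.

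Among the single RNAs, SCR1 had 1613 reads with Sni445-HTP, against 73324 in the control, near the control level of U2, but its cDNA ratio was 0.960 (0.866 to 1.06), against 0.246 for U2. RPR1, with 50 cDNAs in each library, and NME1, with 40 in each, both had a cDNA ratio of 2.58, and TLC1, with 4 cDNAs in the Sni445-HTP library and 96 in the control, had 0.108 (0.0287 to 0.285). TLC1, U2 and U1 were thus the lowest of these. snR4 and snR45 had the opposite pattern, with cDNA ratios of 35.0 for snR4 and 123.8 for snR45. They had 19263 and 28090 cDNAs with Sni445-HTP, where U6 had 93.

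RNA length moved with these ratios in part, and its part in the result was not tested. Of 82 noncoding RNAs with an R64 length, the 25 without a control read were 78 to 171 nt long with a median of 96 nt, and the 57 with control reads were 82 to 1301 nt long with a median of 194 nt. U6 is 112 nt long. Among the 36 RNAs of that length or less, 20 had no control read, and among the 46 longer ones 5 had none. Over the snRNAs and the 4 other RNAs with at least 10 counts in both libraries, which leaves out U6 and, in cDNAs, TLC1, Spearman's rho between length and the ratio was -0.79 in reads (n = 8) and -0.67 in cDNAs (n = 7), but over the snoRNAs it was -0.01 (n = 48) and -0.14 (n = 46). The points share both libraries, and genes are not independent replicates.

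**Figure D5:**
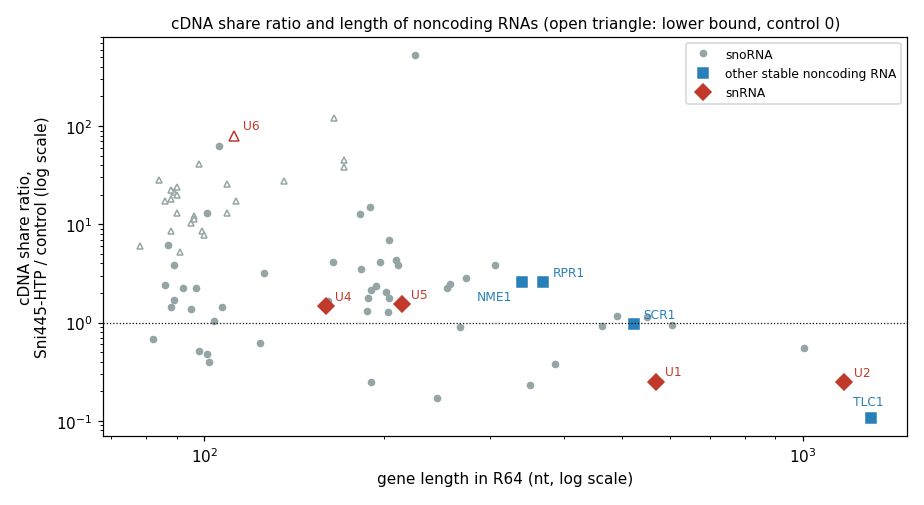
cDNA share ratio, Sni445-HTP over untagged control, against gene length in R64 for snRNAs, other snoRNAs and other stable noncoding RNAs, both axes logarithmic; open triangles are lower bounds for RNAs with no control cDNA. The long RNAs U1, U2 and TLC1 lie below 1, but so do some shorter snoRNAs, and SCR1 and some long snoRNAs lie near 1. Most RNAs with no control cDNA, U6 included, are short.

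The mRNAs of 80 proteins of the yeast spliceosome, from Sm and Lsm proteins to snRNP proteins and helicases, were scarcely seen. Of these, 23 had a sense read in either library, 19 with Sni445-HTP and 5 in the control. More features were seen with Sni445-HTP over the whole list too, 3167 of 5758 with a sense read, against 1419 in the control. The 18 seen only with Sni445-HTP had at most 8 reads each. SUB2, a helicase of early spliceosome assembly, had 18 reads from 3 cDNAs with Sni445-HTP and 2811 reads from 10 cDNAs in the control, a ratio in all sense counts of 0.00545 (0.00322 to 0.00863). That scale moves with the guides, and its median over features was 0.0335. The SUB2 ratio rests on few cDNAs. SNU66, a tri-snRNP protein, had 0 reads with Sni445-HTP and 1671 reads from 84 cDNAs in the control. LSM4, of the ring that binds U6, PRP42, a U1 snRNP protein, and SME1, an Sm protein, also had 0 reads with Sni445-HTP, against 1356, 1136 and 64 in the control. All 4 that could be tested were called lower, against the 98.2% of features given above, and none could be tested as higher.

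The features whose pattern was most like that of the summed snRNAs were found by the distance over 3 log2 share ratios, those of reads under each limit and of cDNAs, among 243 features with at least 10 counts in both libraries. They were the aspartate tRNA genes tD(GUC)B, at a distance of 0.18, and tD(GUC)D, at 0.30, the mitochondrial rRNA 15S_RRNA, at 0.21, the snoRNA SNR18, at 0.35, and TDH2, a glyceraldehyde-3-phosphate dehydrogenase mRNA, at 0.43. The summed snRNAs had log2 ratios of -6.18, -5.96 and -1.28. Single snRNAs lay on either side of this sum, U2 with -7.04, -6.96 and -2.03 and U4 with -3.85, 1.26 and 0.56. Likeness to the sum is thus not likeness to each snRNA. SNR18 had 266 reads with Sni445-HTP, against 20633 in the control, and 15S_RRNA had 110 with Sni445-HTP, against 5903.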

How the data were processed

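The Sni445-HTP strain and the untagged control strain gave 1 CRAC library each, assigned by the sample labels. The authors separated the libraries by barcode and aligned reads to EF2.59 with Novoalign 3.09.00, which put a read with more than 1 matching site at a random one of them. Counting was with pyReadCounters (Counters 1.4.4 by the file headers). The deposited counts are whole reads per feature in sense and antisense and distinct cDNAs per feature, not normalized. The rule for collapsing reads to cDNAs is not given in the sources used here. Labels name a MiSeq, and the methods a NextSeq2000. The Sni445-HTP library held 21867727 mapped reads, against 12654405 in the control. The precision of each value is set by the snRNA counts themselves, 1288 reads with Sni445-HTP.

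Shares with Clopper-Pearson intervals and ratios with exact conditional binomial intervals were computed in Python 3.11.15 with scipy 1.17.1, and TMM factors with edgeR 4.0.16 in R 4.3.3. The ratio intervals and the rules for calls were tested on simulated data, drawn as independent counts around the control reads. These held neither PCR copies nor the guide share of the Sni445-HTP library, so they do not bear on the error that copies add. Ratios over a control count of 0 used a floor of 3 counts and are lower bounds. R64, which differs from EF2.59, served by gene name for places, lengths and sequences only. Of the 80 spliceosome genes, 79 matched an R64 symbol, and the remaining one, PRP17, had no row in the counts.

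Members and lists were chosen with earlier results of these data known. The features named are the snRNAs, NME1, RPR1, SCR1, TLC1, snR4 and snR45, the 5 features most alike, and splicing protein mRNAs with at least 10 reads, at most 5. SNR49 and the features named only in the closing section were picked out later, with their values in view. The alternatives were the 30 limit, cDNAs, other denominators and scalings, other minimums, folds and floors, and both U5 forms summed. Reads over 30 bp and sums without U6 were chosen after seeing the data. Positions of reads within the snRNAs were not analysed here.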

Additional observations from a re-analysis of the deposited data

How the results depend on the processing

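No paired analysis was possible because there is 1 library per strain and the results come from no test. The share ratio of the summed snRNAs was 0.0138 and stayed below 1 under every alternative run. It was 0.0160 within the 30 limit, 0.0119 with antisense counts included, 0.00938 over mapped reads, 0.00428 without rRNA, 0.459 without the guides, 0.413 in cDNAs, 0.664 with median-ratio scaling and 0.483 with TMM. Without U6, chosen after seeing the data, it was 0.00963, and 0.303 in cDNAs. The direction of U4 and of both U5 forms turned under 5 alternatives. Within the 30 limit, in cDNAs, without the guides, with median-ratio scaling and with TMM the ratios were 2.40, 1.48, 2.31, 3.33 and 2.42 for SNR14, at least 5.40, then 1.55, 2.11, 3.05 and 2.22 for SNR7-L, and at least 4.36, then 1.33, 1.86, 2.69 and 1.96 for SNR7-S. U1 and U2 stayed below 1 in every alternative run. U6 stayed above 1, but its control count was 0 in each of them, so its direction could not turn. The 5 members called lower became 2 within the 30 limit, 1 in cDNAs, 1 without the guides, and 0 with either scaling. The 1 called higher became 0 in cDNAs, where U6 fell under the minimum of 100. The difference in make-up, 43.6 percentage points, was 60.01 within the 30 limit and 38.5 in cDNAs. Of 45 alternatives for the 5 members with control reads, 7 stayed within the counting interval of the reported ratio, 23 kept the direction outside it, and 15 turned. The bound for U6 ran from 34.2 without rRNA, through 51.9 within the 30 limit and 53.0 for reads over 30 bp, to 5313 with median-ratio scaling. The causes were not tested. With Sni445-HTP, U1, U4 and U5 rest on 36, 36 and 21 cDNAs, which sets the width of their intervals.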

Other observations

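The intergenic feature INT_0_5746 had 201 sense reads from 40 cDNAs with Sni445-HTP, against 0 in the untagged control. It was picked out after its values were seen, because its number follows that of INT_0_5745, whose antisense reads, 400 with Sni445-HTP, against 0 in the control, were close in number to the sense reads of U6. The sources used here give no coordinates for either, so their places relative to U6 are not known. For every 100 U6 reads it had 51.7 reads with Sni445-HTP, and 82.1% of its reads were within the 30 limit, against 64.3% of those on U6. In R64 the 30 nt after the 3′ end of the U6 gene, on chromosome XII from 366347 to 366376 on the plus strand, begin with a run of T, in capitals, the letters at which RNA polymerase III is known to stop: TTTTTTatcatcgagtgaagtatcgtgact. Whether the reads of INT_0_5746 fall there was not tested.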
